A study of Mus musculus with 18 samples.

Results

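The urea cycle and amino acid catabolism genes studied here are 9 mouse genes. Cps1, Otc, Ass1, Asl and Arg1 encode the 5 enzymes of the urea cycle, and Hal, Sds, Gls2 and Tat encode enzymes that break down amino acids. The members were all probe sets of the Affymetrix Mouse430_2 expression array that GEO's platform annotation pairs with exactly 1 of these symbols. This rule found 9 of the 45101 probe sets, which stand for 7 genes: 3 probe sets for Otc and 1 each for Cps1, Ass1, Asl, Arg1, Hal and Tat. Sds, serine dehydratase, and Gls2, the liver form of glutaminase, have no listed probe set and are named only. The rule used no measured value, but the members were chosen with earlier results of these data known. All 7 genes with a probe set passed the filter on dim genes.

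Liver RNA came from male C57BL/6J mice, per the labels 1 mouse per array, with 6 arrays in each of 3 diet groups. All mice arrived at 5 weeks of age, were acclimatised for 1 week and then ate their diet for 20 weeks. The control group ate the purified diet AIN93G, the Western group a Western-style diet with 39.9% of energy as fat, 34.0% as sucrose, 20% butter, 1% soy oil and 0.15% cholesterol, and the Western plus quercetin group the same Western-style diet with 0.05% quercetin, a plant flavonol. The 18 arrays include none from mice given quercetin on the control diet. The labels give 3 mice per cage without saying which mice shared one, and number the samples of each group 1 to 6 without saying what the numbers stand for.

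The urea cycle turns the ammonia released from amino acids into urea, and in mammals it runs in full in the liver, mostly in the hepatocytes around the portal vein. Its early steps take place in the mitochondrion and its later steps in the cytosol. Transcription of its genes and of Hal, Sds and Tat is known to rise with dietary protein, fasting, glucagon and glucocorticoids, and several of these genes depend on factors of the C/EBP family.

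The deposited intensity of each probe set was put on the log2 scale after adding 16 and quantile normalised over the arrays; a normalised signal below is the same value turned back to intensity units. Before normalisation each array's median lay between 12.7 and 23.2. Control arrays 4 and 5 were nearly identical, with an SD of their log2 differences of 0.0387 over 1375 bright probe sets, where the next closest of 153 pairs of arrays gave 0.137. Whether they came from 2 mice is therefore in doubt, and their mean entered as a single sample, control 4-5, so the groups held 5, 6 and 6 samples. The number of samples limits the precision, and the 95% interval of a log2 difference between the Western and control groups reached a median of 0.244 to either side. The tissue label was checked against hepatocyte genes: the summed signal of 8 of them, Cps1 included, lay between 58289 and 63485 in every sample. Of 4 markers of gut or exocrine pancreas with a probe set, 3 were below the filter on dim genes. The remaining one, the gut gene Fabp2, passed it, and the summed signal of the 4 markers lay between 1253 and 2549.

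On the Western-style diet 5 of the 7 genes were called lower than on the control diet at an adjusted p under 0.05, against 3.16% of the 13645 genes tested that were called lower and 8.65% called in either direction. Hal fell most, 2.16-fold, followed by Tat at 1.72-fold, Ass1 at 1.66-fold, Asl at 1.48-fold and Arg1 at 1.27-fold. Cps1 and Otc did not pass the test. In all 7 genes, Otc with its overlapping groups included, every one of the 6 Western mice lay below the control mean. How many of all genes do so was not counted, and the 7 genes share the same samples. For 5 genes, Cps1, Ass1, Asl, Arg1 and Hal, the Western and control samples did not overlap, and 2.73% of all genes were lower in this way. The median log2 difference of the 7 genes was -0.56, beside -0.01 over all genes tested. In RNA from whole tissue, fewer cells of a type and less RNA per cell cannot be told apart.

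**Figure D1:**
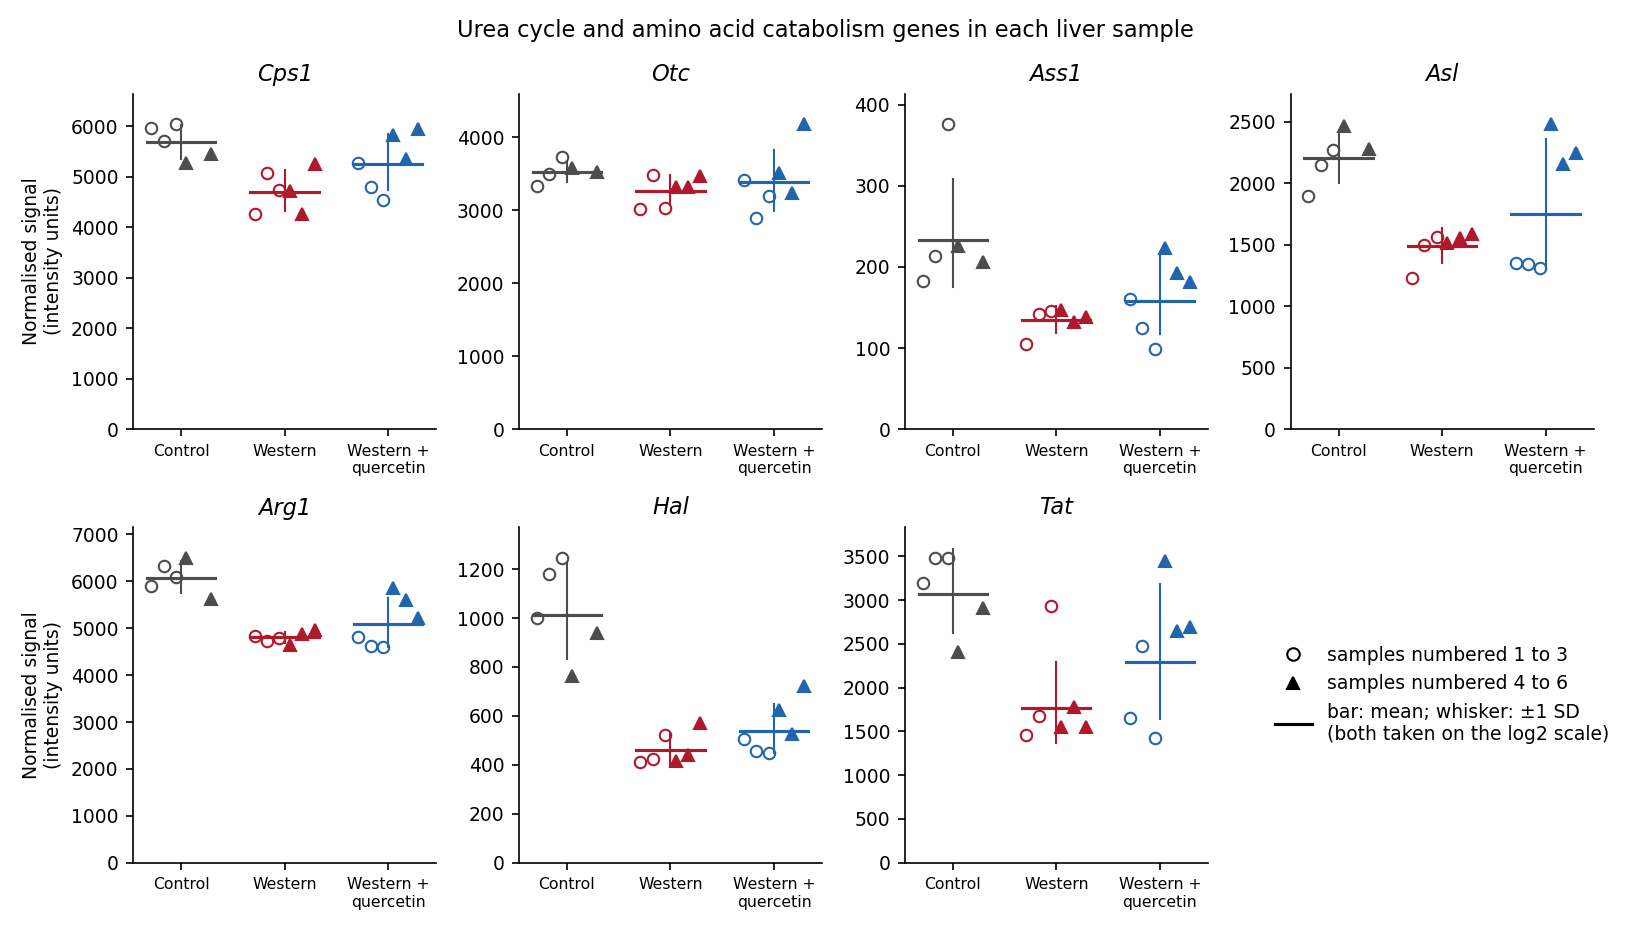
Normalised signal in intensity units (linear axes from 0) of 7 urea cycle and amino acid catabolism genes in each liver sample, by diet group; open circles are samples numbered 1 to 3, triangles samples numbered 4 to 6, bars the mean and whiskers 1 SD, both taken on the log2 scale. Hal stood at 765 to 1247 in the control group and at 413 to 573 in the Western group, and the quercetin samples of Asl fall into a low set at 1315 to 1355 and a high set at 2157 to 2483.

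The mitochondrial steps of the cycle, Cps1 and Otc, had the smallest differences of the 7 genes at the probe sets used. Ass1, a cytosolic step, differed by only -0.26 at the probe set it shares with the pseudogene Gm5424. The steps were not tested against each other. Cps1, which makes carbamoyl phosphate from ammonia and is the entry step of the cycle, had normalised signals of 5975, 5707, 6048, 5270.3 and 5456 in control samples 1, 2, 3, 4-5 and 6 (probe set 1455540_at). In the Western group its lowest, median and highest signals were 4259, 4734 and 5256. The highest Western sample thus stood just under the lowest control sample. The log2 level of Cps1 was 12.48 ± 0.08 (SD, n = 5) in the control group and 12.21 ± 0.12 (n = 6) in the Western group, a difference of -0.27 ± 0.08 (SE) with an adjusted p of 0.0535 by limma. It crossed the threshold when Western 2 (adjusted p = 0.0440), Western 6 (0.0406), quercetin 2 (0.0499), quercetin 3 (0.0422) or quercetin 6 (0.0475) was left out. It was also called in 7 of 17 other settings, among them a replicate block of samples 1 to 3 and samples 4 to 6 (adjusted p = 0.0430 by limma), and so in 12 of 34 in all. Otc joins carbamoyl phosphate to ornithine, and its brightest probe set, 1420525_a_at, gave 3329.5, 3496, 3728, 3587 and 3531 in the control samples. The Western samples ran from 3021 through a median of 3321 to 3492 and overlapped the control samples. The log2 difference of Otc was -0.11 ± 0.08 (95% interval -0.285 to 0.0645), with an adjusted p of 0.473 by limma.

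The 2 other probe sets of Otc gave the same picture. Probe set 1436615_a_at ran from 1602 to 2065 in the control group, from 1136 to 2038 in the Western group and from 1520.3 to 2887 in the quercetin group. The dimmer 1425540_at ran from 42.1 to 81.2, from 29.6 to 66.5 and from 31.6 to 84.1. All 3 groups overlapped for both. With every probe set as its own row, 4.35% of 33778 probe sets were called between the Western and control groups. The log2 differences of the 3 Otc probe sets in that fit were -0.11, -0.13 and -0.19, with adjusted p of 0.564, 0.751 and 0.621. The same 5 genes, Hal, Arg1, Ass1, Tat and Asl, passed at the level of probe sets, with adjusted p by limma from 0.000224 for Hal to 0.0456 for Asl.

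The cytosolic steps were lower on the Western-style diet. Ass1 joins citrulline to aspartate, and its normalised signals in the control samples were 183, 214, 376, 226 and 206 (probe set 1459937_at). Its Western samples ran from 105 through a median of 140.1 to 147, all below every control sample, and control 3 stood far above the other controls. The log2 level of Ass1 was 7.96 ± 0.38 (SD, n = 5) in the control group and 7.23 ± 0.16 (n = 6) in the Western group, a difference of -0.73 ± 0.18 (SE, adjusted p = 0.0175 by limma). A further probe set, 1416239_at, is paired with both Ass1 and the pseudogene Gm5424 and falls outside the rule. It read 5511 to 6677 in the control group and 4878 to 5318 in the Western group, a log2 difference of -0.26 ± 0.08 with an adjusted p of 0.0703 in the probe set fit. The log2 difference was thus smaller at the shared probe set, which did not pass the test, than at the probe set of Ass1 alone, and the difference between the probe sets was not tested.

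Asl splits argininosuccinate into arginine and fumarate. Its control samples stood at 1896, 2152, 2272, 2469.8 and 2279.7 (probe set 1448350_at), and its Western samples ran from 1232 through 1537 to 1586. The lowest control sample exceeded the highest Western sample. The log2 level of Asl was 11.12 ± 0.14 (SD, n = 5) against 10.55 ± 0.13 (n = 6), a difference of -0.56 ± 0.16 (SE, adjusted p = 0.0314 by limma). This call was lost without control 2, 3, 4-5 or 6 or Western 1, 4 or 5, where the adjusted p were 0.0568, 0.0645, 0.0687, 0.0689, 0.0734, 0.0577 and 0.0530. It was also lost when array medians were centred in place of quantile normalisation (adjusted p = 0.0771). Arg1 cuts arginine into urea and ornithine, and certain macrophages make it too. Its control samples stood at 5889, 6316, 6095, 6506 and 5633 (probe set 1419549_at), against 4633, 4810.3 and 4957 as the lowest, median and highest Western samples. The 6 Western samples lay close together and well under all controls. The log2 level was 12.57 ± 0.08 (SD, n = 5) against 12.23 ± 0.03 (n = 6), a difference of -0.34 ± 0.07 (SE, adjusted p = 0.00826 by limma).

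The 2 measured enzymes of amino acid breakdown had the largest differences. Hal, histidine ammonia-lyase, removes the amino group of histidine. Its control samples stood at 1000.4, 1182, 1247, 765 and 937 (probe set 1418645_at) and its Western samples at 413, 431 and 573 (lowest, median and highest). All Western samples lay below the lowest control. The log2 level of Hal was 10.00 ± 0.28 (SD, n = 5) against 8.90 ± 0.19 (n = 6), a difference of -1.11 ± 0.14 (SE, adjusted p = 0.000157 by limma). Tat, tyrosine aminotransferase, catalyses the entry step of tyrosine breakdown and is a textbook target of glucocorticoids. Its control samples stood at 3196, 3485, 3479, 2402 and 2906 (probe set 1451557_at) and its Western samples at 1456, 1616 and 2935 (lowest, median and highest). Western 3 lay within the control range, whereas the other 5 Western samples were at or under 1779.5. The log2 level of Tat was 11.59 ± 0.22 (SD, n = 5) against 10.80 ± 0.37 (n = 6), a difference of -0.79 ± 0.21 (SE, adjusted p = 0.0253 by limma). The call was lost without control 2 (adjusted p = 0.0613), control 3 (0.0601), Western 1 (0.0579) or Western 4 (0.0578).

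Scaling and the use of an RNA quality ratio as a covariate bear on these calls. Over all genes, 749 (5.49%) were called higher and 431 lower; with the values as deposited the counts were 3641 and 84, and with array medians centred 1108 and 176. As deposited, the median gene stood 0.22 log2 units higher in the Western group, Hal and Tat were still called lower, and Otc turned to 0.04. Set against that median, the deposited values gave -1.08 for Hal, -0.83 for Tat, -0.67 for Ass1, -0.60 for Asl, -0.45 for Arg1, -0.40 for Cps1 and -0.18 for Otc. The log2 ratio of the 3 prime to the 5 prime actin probe sets, a measure of RNA integrity and labelling, was 0.68 ± 0.06 (SD, n = 5) in the control group and 0.54 ± 0.11 (n = 6) in the Western group. With this ratio as a covariate 227 genes were called, Hal among them, whereas the adjusted p rose to 0.0973 for Arg1, 0.104 for Tat, 0.132 for Ass1 and 0.218 for Asl. Their log2 differences then were -0.31, -0.87, -0.70 and -0.49.

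RefSeq promoter windows on GRCm38.p6 were given for 4 of the 9 members: Hal, Tat and Ass1, called lower, and Otc, not called. Ass1 was called at probe set 1459937_at, while the brighter 1416239_at, shared with Gm5424, gave -0.26 and did not pass. They are shown because the members shared a direction but not a size of difference. Each runs 5′ to 3′ on the plus strand and covers the 250 bases before the annotated start. The positions are chr10:93488518-93488767 for Hal, chr8:109990186-109990435 for Tat, chr2:31470020-31470269 for Ass1 and chrX:10252055-10252304 for Otc. Capitals mark matches to TTNNGNAA, a loose form of the C/EBP site read on either strand, and in Hal also a TATAAA box on the minus strand, which reads TTTATA.
Hal: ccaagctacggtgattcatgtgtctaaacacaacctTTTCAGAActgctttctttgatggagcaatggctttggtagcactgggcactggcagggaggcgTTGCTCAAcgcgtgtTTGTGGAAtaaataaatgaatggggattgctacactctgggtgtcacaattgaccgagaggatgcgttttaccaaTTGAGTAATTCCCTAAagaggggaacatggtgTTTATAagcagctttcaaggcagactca
Tat: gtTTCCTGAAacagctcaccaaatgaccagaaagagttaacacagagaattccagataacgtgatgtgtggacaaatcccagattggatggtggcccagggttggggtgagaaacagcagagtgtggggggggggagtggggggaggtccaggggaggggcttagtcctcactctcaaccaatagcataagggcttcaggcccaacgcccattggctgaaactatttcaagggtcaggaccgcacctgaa
Ass1: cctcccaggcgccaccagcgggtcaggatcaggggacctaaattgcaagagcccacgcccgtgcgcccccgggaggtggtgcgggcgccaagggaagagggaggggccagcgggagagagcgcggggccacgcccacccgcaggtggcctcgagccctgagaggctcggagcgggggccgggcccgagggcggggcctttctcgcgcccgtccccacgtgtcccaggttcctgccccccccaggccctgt
Otc: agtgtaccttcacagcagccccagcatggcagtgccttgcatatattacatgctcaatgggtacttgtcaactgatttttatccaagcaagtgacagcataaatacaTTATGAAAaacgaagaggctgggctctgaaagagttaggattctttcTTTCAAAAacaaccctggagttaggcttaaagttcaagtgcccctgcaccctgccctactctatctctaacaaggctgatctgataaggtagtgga

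The search covered both strands of the 300 bases from 250 before to 50 after each start, and the same windows of 32851 promoters. TTNNGNAA occurred in 40.68% of all promoters. The Hal window held 5 matches, beginning at positions -214, -150, -135, -60 and -52 from the start, and 0.286% of promoters held at least 5. Otc held 2 matches, at -143 and -96, and 15.06% of promoters held at least 2. Tat held 1 match at -248 and Ass1 held 0. The TATAAA match of Hal began at -28, and 13.62% of promoters have a match. The stricter C/EBP palindrome TTGCGCAA (0.183% of promoters), itself a case of the loose form, was not found in any of the 4 windows. Nor were the cAMP response element TGACGTCA (1.79%), its shorter form TGACG (20.81%), which the full element contains, or the short glucocorticoid receptor form TGTTCT (18.97%). The Ass1 window was the richest in G and C at 75.6%, against 53.6% for Tat, 45.6% for Hal and 43.6% for Otc. The shares are over all promoters and were not matched for G and C content, while TTNNGNAA consists mostly of T and A. A match in these letters is a description of the window and not a site of binding.

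**Figure D2:**
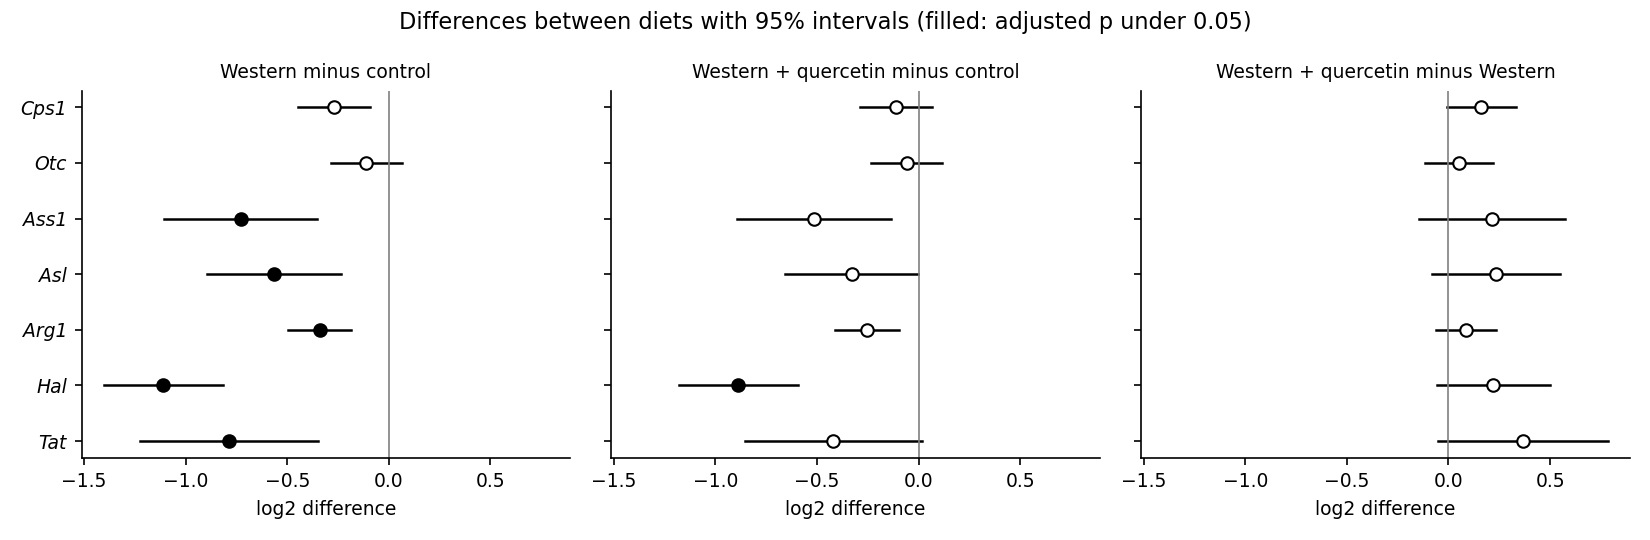
Log2 difference of each gene between diet groups (points) with 95% intervals (bars), from the limma fit over all genes; filled points have an adjusted p under 0.05. Between the Western and control groups 5 genes are filled, between the quercetin and control groups Hal alone (-0.89), and between the quercetin and Western groups none, with all 7 points to the right of 0.

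Quercetin in the Western-style diet gave no call among the 7 genes. Over all 13645 genes 0% were called by limma in either direction, while 392 genes (2.87%) and 0 of the 7 members had an unadjusted p under 0.05. Trend and robust settings of the same tool also called 0 genes. The 7 genes all had a higher mean in the quercetin group than in the Western group, by a median log2 difference of 0.21 beside -0.01 over all genes. Their intervals limit what the design could miss: 0.37 ± 0.20 (SE, 95% interval -0.05 to 0.78) for Tat, 0.23 ± 0.15 (-0.08 to 0.55) for Asl, 0.22 ± 0.13 (-0.06 to 0.50) for Hal and 0.21 ± 0.17 (-0.15 to 0.58) for Ass1. For Cps1 the difference was 0.16 ± 0.08 (-0.0079 to 0.33), for Arg1 0.09 ± 0.07 (-0.06 to 0.23) and for Otc 0.05 ± 0.08 (-0.12 to 0.22). The adjusted p was 0.9999 for each of the 7 by limma. In simulated data for the Western and control groups, 32% of genes changed by 0.5 and 92% of genes changed by 1 on the log2 scale were recovered. No simulation was run for the quercetin and Western groups, so recovery in that comparison is not known.

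Between the quercetin and control groups 1 of the 7 genes was called, Hal, against 5.41% of all genes in either direction, 1.98% called lower and 3.43% called higher. With the values as deposited, 58 genes were lower and 3197 higher in this comparison, and with array medians centred 104 and 575. The quercetin samples 1 to 6 of Hal stood at 506, 455, 448, 624.9, 526 and 723, under the lowest control at 765. Of all genes 2.1% were lower without overlap. Hal was 1.85-fold lower, a log2 difference of -0.89 ± 0.14 (SE, adjusted p = 0.00159 by limma). The others were not called: Arg1 differed by -0.25 ± 0.07 (adjusted p = 0.0530), Ass1 by -0.52 ± 0.18 (0.107), Asl by -0.33 ± 0.16 (0.25), Tat by -0.42 ± 0.21 (0.270), Cps1 by -0.11 ± 0.08 (0.511) and Otc by -0.06 ± 0.08 (0.749). Arg1 passed without quercetin 4 (adjusted p = 0.0263). This comparison shares its samples with both others, so the mean of each gene in the quercetin group, which lay between the other 2 groups, is not a separate result. Of neighbours in that order, no gene differed past the threshold between quercetin and Western, and Hal did between quercetin and control.

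Within the quercetin group the genes split by sample number. Asl stood at 1355, 1344 and 1315 in quercetin samples 1, 2 and 3 and at 2483, 2157 and 2250.3 in samples 4, 5 and 6. The low samples lay within the Western range and the high samples within or just above the control range. Tat stood at 1648, 2476 and 1426 in samples 1 to 3 and at 3441, 2651 and 2687 in samples 4 to 6. Ass1 stood at 160.4, 125 and 98.7 against 224, 193 and 181, and Arg1 at 4813, 4619 and 4606 against 5864, 5592 and 5219. For Tat, Ass1 and Arg1, as for Asl, every sample numbered 4 to 6 exceeded every sample numbered 1 to 3. Cps1 stood at 5278, 4793 and 4537 against 5838, 5351 and 5944, again without overlap. Hal, given above, did not overlap between the sets either. Otc, at 3423, 2899 and 3204 against 3519, 3234 and 4185, overlapped. Thus 6 of the 7 genes were higher in samples 4 to 6 without overlap at the probe sets used, and 9.09% of all genes were higher in this way. For Ass1, the brighter probe set shared with the pseudogene Gm5424 gave 4729 to 5610 in samples 1 to 3. It gave 5456 to 6175 in samples 4 to 6, so the sets overlapped there.

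The comparison of samples 4 to 6 with samples 1 to 3 was chosen after these values had been seen. In the quercetin group Asl was called higher in samples 4 to 6, by 0.77 ± 0.10 (SE, 1.71-fold, adjusted p = 0.00611 by limma), against 0.381% of all genes called higher and 0.557% in either direction. Asl was called in 28 of 29 alternatives, including each of the 17 that left out 1 sample, and missed the threshold with only the quercetin group in the fit (adjusted p = 0.0908 by limma). Tat differed by 0.69 ± 0.23 (adjusted p = 0.190), Ass1 by 0.60 ± 0.21 (0.219), Hal by 0.39 ± 0.15 (0.264), Arg1 by 0.25 ± 0.08 (0.202), Cps1 by 0.23 ± 0.10 (0.320) and Otc by 0.19 ± 0.11 (0.451). All 7 differences were positive, and 6 of 7 had an unadjusted p under 0.05, as had 13.8% of all genes. In the Western group 0 of 7 were called, where 0.044% of all genes were, and 0 of 7 had an unadjusted p under 0.05 (9.09% of all genes). In the control group, with 3 samples against 2, 0 of 7 were called (2.12% of all genes), and Hal with -0.42 ± 0.17 was the 1 member with an unadjusted p under 0.05 (14.7% of all genes).

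**Figure D3:**
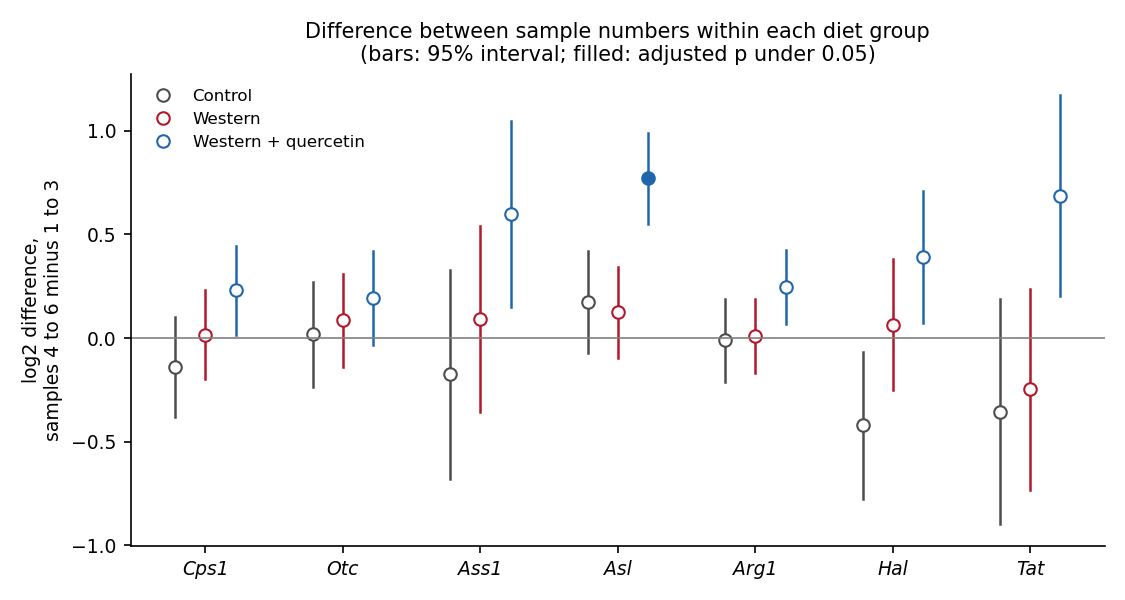
Log2 difference between samples numbered 4 to 6 and samples numbered 1 to 3 within each diet group (points) with 95% intervals (bars), per gene; the filled point has an adjusted p under 0.05. In the quercetin group all 7 points lie above 0, from 0.19 for Otc to 0.77 for Asl, which is the filled point.

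The difference between the quercetin and Western groups took other values in each set of samples, and the difference between the sets was then tested. Among samples 4 to 6, the quercetin mice exceeded the Western mice by 0.83 ± 0.13 (SE) for Tat, 0.56 ± 0.09 for Asl, 0.47 ± 0.10 for Ass1, 0.38 ± 0.16 for Hal, 0.27 ± 0.10 for Cps1, 0.20 ± 0.10 for Arg1 and 0.11 ± 0.11 for Otc on the log2 scale. None was called by limma (0% of all genes), with adjusted p of 0.236 for Tat and 0.251 for Asl, while 5 of 7 had an unadjusted p under 0.05, as had 7.67% of all genes. Among samples 1 to 3 the 7 differences lay between -0.10 and 0.06, with 0 calls and 0 unadjusted p under 0.05 (2.93% of all genes). A test of the difference between the sets called 0 of the 13645 genes. There 2 of the 7 members, Asl with 0.65 ± 0.15 (adjusted p = 0.508 by limma) and Tat with 0.93 ± 0.32 (0.806), had an unadjusted p under 0.05, as had 731 genes (5.36%).

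The lower level on the Western-style diet was present in both sets, with fewer calls at the smaller sample sizes. Among samples 1 to 3 Hal was called, at -1.31 (adjusted p = 0.00356 by limma), against 0.645% of all genes, and all 7 differences were negative. Among samples 4 to 6 Ass1 at -0.58 (adjusted p = 0.0462) and Asl at -0.61 (0.0303) were called, against 2.17% of all genes, and all 7 differences were again negative. Set against the control diet, quercetin samples 1 to 3 had Hal at -1.25 (adjusted p = 0.00297 by limma) and Asl at -0.64 (0.0356) called, with 1.64% of all genes. Quercetin samples 4 to 6 had 0 of 7 called, with 0.235% of all genes, and differences from -0.44 for Hal to 0.14 for Tat.

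Calls among other genes of amino acid metabolism were mostly lower, with some higher. Of 81 listed amino acid enzymes outside the members 75 were measured. On the Western-style diet 16 were called lower, 2 higher and 57 not, where 3.16% of all genes were called lower and 5.49% higher. The same shares apply to the lists below, and none is given for unadjusted p in this comparison. Of the 75 differences 63 were negative, and the median log2 difference was -0.16, beside -0.01 over all genes. Between the quercetin and Western groups 0 of the 75 were called by limma, as over all genes. There 3 had an unadjusted p under 0.05, beside 2.87% of all genes. Between the quercetin and control groups 8 were lower and 3 higher (1.98% and 3.43% of all genes). Among 10 genes that supply the urea cycle, 2 were lower and 0 higher. Got1, the cytosolic aspartate aminotransferase, fell by 0.92 ± 0.20 (SE, 1.89-fold, adjusted p = 0.00856 by limma), and Car5a, the mitochondrial carbonic anhydrase that provides bicarbonate for Cps1, fell by 0.54 ± 0.17 (adjusted p = 0.0477). Nags, which makes the obligatory activator of Cps1, differed by -0.31 ± 0.10 (adjusted p = 0.0584) and was called between the quercetin and control groups at -0.37 ± 0.10 (0.0334).

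Histidine breakdown beyond Hal had 2 of 3 genes lower. Amdhd1, imidazolonepropionase, fell by 0.77 ± 0.10 (1.71-fold, adjusted p = 0.000157 by limma) and Ftcd, which passes the last carbon of histidine to folate, fell by 0.31 ± 0.07 (0.00860), while Uroc1, urocanase, differed by -0.15 (0.432). Both calls held between the quercetin and control groups, at -0.54 and -0.29. In serine, glycine and threonine metabolism 4 of 9 genes were lower and all 9 differences were negative. Agxt, the peroxisomal alanine-glyoxylate aminotransferase, fell by 1.08 ± 0.11 (2.11-fold, adjusted p = 3.08e-05 by limma). Gnmt, glycine N-methyltransferase, fell by 0.38 ± 0.07 (0.00305), Shmt1 by 0.42 (0.0296) and Dmgdh by 0.38 (0.0357). For tyrosine, the pathway that Tat opens, 0 of 6 phenylalanine and tyrosine genes were called (2 with an unadjusted p under 0.05) and the median difference was -0.12, with the smallest p for Hpd at -0.15 ± 0.06 (adjusted p = 0.136).

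Methionine and cysteine genes moved in both directions. Csad, which makes the taurine precursor hypotaurine, rose 2.54-fold, by 1.34 ± 0.16 (SE, adjusted p = 9.59e-05 by limma). Cth, which releases cysteine from cystathionine, fell by 0.63 ± 0.13 (0.00546), Cdo1 by 0.35 (0.0294), Ahcy by 0.33 (0.0429) and Cbs by 0.51 (0.0440). Of 7 genes of glutamine, glutamate, alanine and ornithine, Aldh18a1, an enzyme of proline and ornithine synthesis, rose by 0.70 ± 0.16 (1.63-fold, adjusted p = 0.0118 by limma). Gpt, cytosolic alanine aminotransferase, fell by 0.30 (0.0216), as did the glutamate carrier Slc25a22 by 0.44 (0.0309). Gpt2, its mitochondrial relative, was higher between the quercetin and control groups at 0.45 (adjusted p = 0.0275). The smaller groups had 1 of 3 proline genes lower, Prodh2 by 0.58 ± 0.11 (0.00408), and 1 of 5 tryptophan genes lower, Haao by 0.33 ± 0.08 (0.0139). Of 20 branched-chain genes 0 were called by limma and 4 had an unadjusted p under 0.05, with a median of -0.09 and the smallest p for Ivd at -0.42 ± 0.13 (adjusted p = 0.0513). Of 5 lysine genes 0 were called and 1, Dhtkd1 at -0.33 ± 0.15, had an unadjusted p under 0.05 (adjusted p = 0.191).

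**Figure D4:**
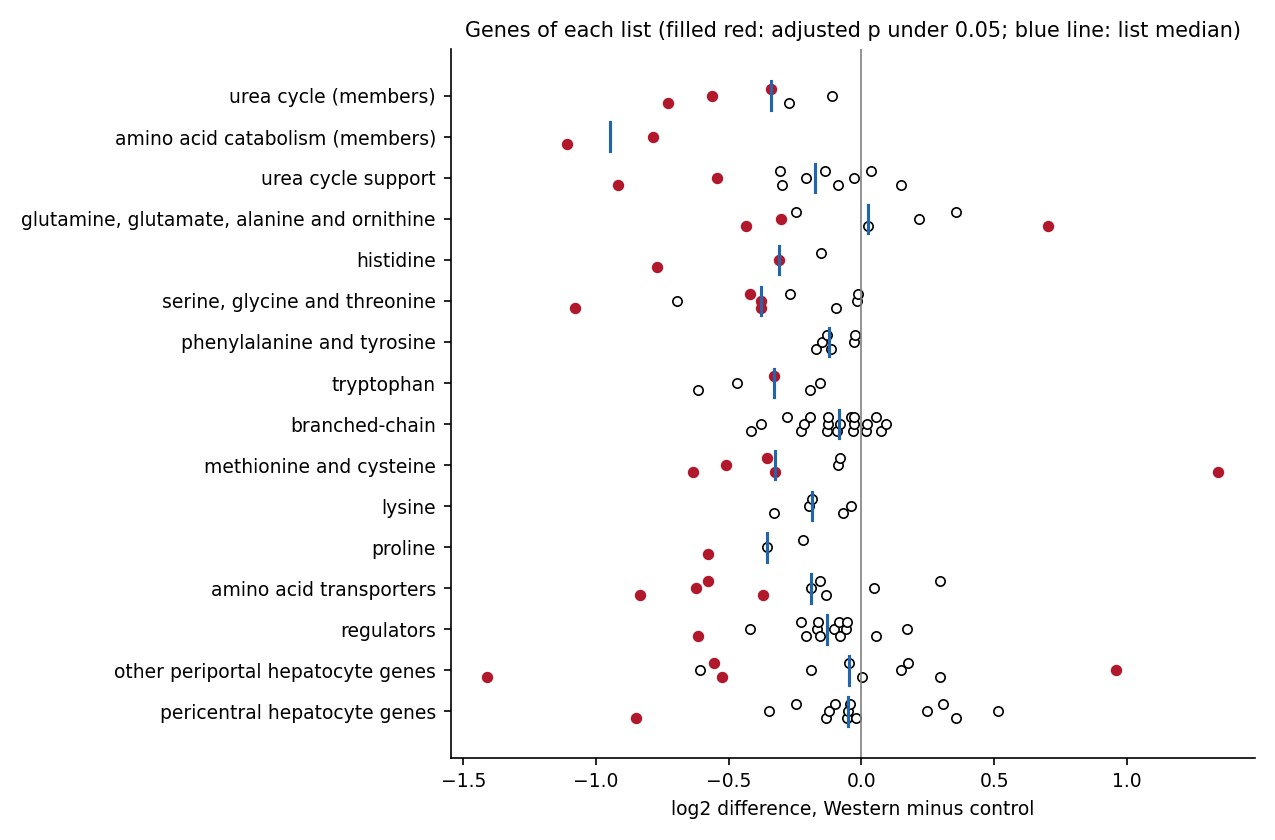
Log2 difference between the Western and control groups for each measured gene of the amino acid, transporter, regulator and zonation lists; each circle is a gene, filled red where the adjusted p is under 0.05, and the blue line is the list's median. The measured members of the urea cycle (median -0.34) and of amino acid catabolism (median -0.95) stand at the top, and the branched-chain list (median -0.09) holds no filled circle.

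Of 9 amino acid transporters 4 were lower on the Western-style diet and 0 higher. Slc38a2, a carrier of small neutral amino acids, fell by 0.58 ± 0.12 (adjusted p = 0.00634 by limma), Slc3a1 by 0.62 ± 0.14 (0.00973), the glutamine carrier Slc38a3 by 0.37 (0.0260) and Slc43a1 by 0.83 ± 0.25 (0.0431). Among 14 regulators of these pathways, 1 was called: Klf15, a glucocorticoid-induced factor that activates amino acid breakdown, fell by 0.62 ± 0.12 (1.53-fold, adjusted p = 0.00415 by limma) and was also lower between the quercetin and control groups (-0.44 ± 0.12, 0.0403). Since the members are mostly periportal genes, both zones of the lobule were listed. Of 11 other periportal genes 3 were lower and 1 higher, with a median of -0.05. Etnppl fell by 1.41 ± 0.20 (2.66-fold, adjusted p = 0.000362), Pigr by 0.53 ± 0.12 (0.00985) and Pck1, a gluconeogenic enzyme, by 0.56 ± 0.17 (0.0431), while Apoa4, an apolipoprotein, rose by 0.96 ± 0.13 (1.94-fold, 0.000275). Of 14 pericentral genes Cyp1a2 fell by 0.85 ± 0.20 (adjusted p = 0.0117), the rest were not called, and the median was again -0.05. Lect2 was lower between the quercetin and control groups (-0.42 ± 0.12, 0.0496).

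In the split of the quercetin group by sample number, few of these genes were called higher in samples 4 to 6; they are named after their values were seen. Of the 75 amino acid enzymes 2 were, Afmid by 0.86 ± 0.16 (SE, adjusted p = 0.0253 by limma) and Prodh by 0.79 ± 0.16 (0.0358), and 53 differences were positive with a median of 0.09. Of 14 regulators 1 was, Cebpb, a factor of the C/EBP family, by 0.80 ± 0.15 (0.0239). Of 11 other periportal genes 1 was, Pck1, by 0.64 ± 0.13 (0.0389). Of 14 pericentral genes 1 was, Cyp7a1, the rate-limiting enzyme of bile acid synthesis, by 1.52 ± 0.28 (0.0239). Over all genes 0.381% were called higher in this split. Got1 (0.85 ± 0.18, adjusted p = 0.0510 by limma), the transporter Slc38a2 (0.51 ± 0.11, 0.0510) and Klf15 (0.51 ± 0.11, 0.0550) stood just outside the threshold.

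Markers of other liver cells moved with the diet. On the Western-style diet 10 of 16 macrophage and Kupffer cell markers and 6 of 10 stellate cell markers were higher, and 0 of either list were lower. The summed macrophage signal was 4596 to 5949 in the control group, 6818 to 12533 in the Western group and 5816 to 15988 in the quercetin group, and the stellate sum 2058 to 2233, 2938 to 4392 and 2621 to 5011. The hepatocyte sum was 61531 to 63485, 58289 to 60959 and 58750.1 to 61783, with 0 of 8 genes called by limma, 3 with an unadjusted p under 0.05 and a median of -0.04. Of 9 endothelial markers 1 was higher, Lyve1, and of 4 cholangiocyte markers 0 were called or had an unadjusted p under 0.05. The T cell, B cell, neutrophil, erythroid, adipocyte and kidney tubule lists had 0 calls, with 1, 1, 1, 1, 0 and 0 genes at an unadjusted p under 0.05, and the gut gene Fabp2 was higher by 0.49 (adjusted p = 0.00352). Within the quercetin group the macrophage sum was 8007 to 15988 in samples 1 to 3 and 5816 to 9793 in samples 4 to 6, the stellate sum 3518 to 5011 and 2621 to 3493, and the hepatocyte sum 58750.1 to 59799 and 60231 to 61783. The stellate and hepatocyte sums thus did not overlap between these sets, while the macrophage sums did. The hepatocyte sum includes the member Cps1, at 4537 to 5278 in samples 1 to 3 and 5351 to 5944 in samples 4 to 6. It is thus not separate from the members, here or between the diet groups. Of the stellate markers 0 of 10 were called by limma in that split, 6 had an unadjusted p under 0.05 and all 10 differences were negative, with a median of -0.36; of the macrophage markers 0 of 16 were called, 1 had an unadjusted p under 0.05 and 15 were negative, with a median of -0.50. The part of these shifts in the lower levels of Hal, Tat, Ass1, Asl and Arg1 on the Western-style diet, and in the split of the quercetin group, was not tested.

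The 7 genes varied unequally over the 17 samples. The range from lowest to highest sample was 1.77 log2 units for Ass1, 1.56 for Hal, 1.28 for Tat and 1.00 for Asl, and 0.50 to 0.53 for Cps1, Otc and Arg1. For Ass1 this is the range at its own probe set, from 6.84 in quercetin 3 to 8.62 in control 3. At the brighter probe set shared with Gm5424, the log2 level ran only from 12.21 in quercetin 3 to 12.71 in control 2. The place of Ass1 among the 3 widest, and its nearest genes, thus rest on its own probe set. For the 3 widest, the genes with the most similar profile were found by the root mean square (RMS) difference of log2 deviations from each gene's own mean. Nearest to Hal were Agxt at 0.176, Cyp2u1 at 0.177 and Etnppl at 0.201, where a flat profile would give 0.51 and the median gene gave 0.54. Nearest to Tat were Got1 at 0.257, Slc38a2 at 0.273 and Klf15 at 0.278 (0.47 for a flat profile, 0.50 for the median gene). Nearest to Ass1 were Cth at 0.216, Mtfp1 at 0.234 and Klf15 at 0.235 (0.42 and 0.46). Being chosen for their likeness over all 17 samples, these genes share the diet difference by construction, and Cyp2u1 with -0.92 and Mtfp1 with -0.48 between the Western and control groups are described without a test.

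**Figure D5:**
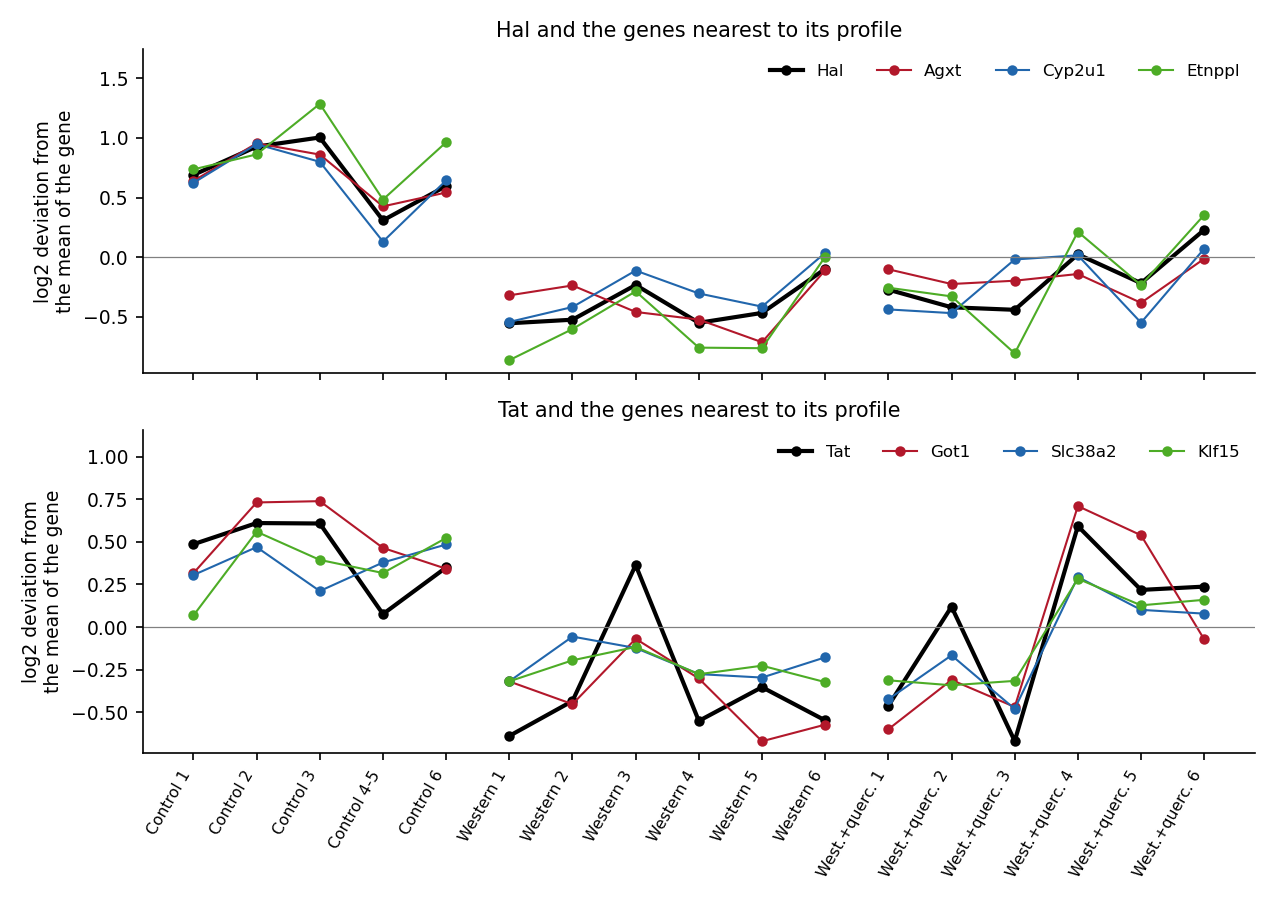
Log2 deviation of Hal and Tat (black) and of their 3 nearest genes (colours) from each gene's mean over 17 samples, by sample. The 5 control samples of Hal lie above its mean, all 6 Western samples lie below it, and for Tat quercetin samples 4 to 6 lie above the mean as do all 5 control samples. Western 3 and quercetin 2 also lie above the mean of Tat.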

How the data were processed

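Expression of urea cycle and amino acid catabolism genes was read from Affymetrix Mouse430_2 arrays of 18 liver RNA samples, per the labels 1 mouse each. The authors deposited 1 linear intensity per probe set, from 0.0118 to 12323 with 0 missing. How it was derived from the scans is not given in the sources used here. All 64 spike-in probe sets were removed, and the other 45037 were put on the scale log2(value + 16) and quantile normalised. A fold is thus a ratio of value + 16 and understates changes of dim genes. Probe sets were named through GEO's platform annotation: 34945 had 1 symbol, 932 several and 9160 none. The brightest probe set with 1 symbol stood for each of 18193 genes, and a filter at the 25th percentile of the genes' means (log2 4.564) removed 4548 dim genes and kept 13645. Control arrays 4 and 5 were averaged, which left 17 samples.

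Group means were estimated for every gene in 1 linear model with limma 3.58.1 in R 4.3.3, with two-sided moderated tests and Benjamini-Hochberg adjustment over all genes within each comparison; an adjusted p under 0.05 was called. The comparisons share samples. Arrays were the replicates, except that control 4 and 5 counted as 1, and cages could not be modelled. On simulated data for the Western and control groups over 13645 genes, with 50 genes changed at each size, 12%, 32%, 92% and 100% were recovered at log2 changes of 0.3, 0.5, 1 and 2, with 7 false calls. Plots were made in Python 3.11.15 (matplotlib 3.10.9).

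The members and gene lists were chosen with earlier results of these data known. Of each pathway list the text names up to 4 genes called between the Western and control groups, by smallest p, and up to 2 called in another comparison; of a list with 0 calls it names the gene with the smallest p. For the 3 members with the widest range at the probe sets used it names the 3 nearest profiles. Alternatives covered the scaling, pseudocount, filter on dim genes, choice of probe sets, samples in the fit, spread, actin ratio, sample numbers and each sample left out. Promoter windows are RefSeq's, on GRCm38.p6; no other coordinates were used.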

Additional observations from a re-analysis of the deposited data

Results flagged for a closer look

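Among 21 checks of the 7 genes in 3 groups, 4 sample values stood apart from their own group by Dixon's ratio, the gap of an extreme sample to its nearest neighbour divided by the range of the group.
Chance gives this in about 1 of 20 groups. Control 3 was the highest control for Ass1, with a ratio of 0.711, at a normalised signal of 376 beside 183 to 226 in the other 4. Western 1 was the lowest Western sample for Ass1, with a ratio of 0.684 (105), and for Asl, with a ratio of 0.785 (1232). Western 3 was the highest Western sample for Tat, with a ratio of 0.715, at 2935 where the other 5 were at or under 1779.5. The call of Ass1 between the Western and control groups held in limma without each sample in turn, with a largest adjusted p of 0.0450.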

How the results depend on the processing

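The differences of the 7 measured genes between diets and the counts of members called were recomputed under 34 alternatives, 17 of which left out 1 sample; genes of the other lists and the tests between sets of samples were not, except the split of the quercetin group by sample number. Between the Western and control groups 5 members were called; the count was 1 with the actin ratio as a covariate, 1 among samples 1 to 3, 2 among samples 4 to 6, 2 with the values as deposited and 3 to 6 with 1 sample left out. It was 3 without control 2, control 3, Western 1 or Western 4. Hal was called in 33 of 34, Ass1 in 31, Arg1 in 30, Tat in 27, Asl in 23, Cps1 in 12 and Otc in 0. Between the quercetin and control groups 1 member was called, and 2, with Arg1 or, among samples 1 to 3, Asl added, when control 4 and 5 were kept separate, with trend and robust settings, with the mean of probe sets, above the median level, with a pseudocount of 64 and among samples 1 to 3; it was 0 among samples 4 to 6 and 1 to 2 with 1 sample left out (2 without quercetin 4). Between the quercetin and Western groups the count was 0 in all 34. In the split of the quercetin group, run under 29 alternatives added after its values were seen, 1 member, Asl, was called, and 1 with each sample left out; it was 0 with only that group in the fit, and the other 6 members were called in 0 of 29.

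Directions turned in 12 cases, none of them a called value. Between the quercetin and Western groups among samples 1 to 3 the differences were -0.0318 for Arg1, -0.0891 for Asl, -0.0391 for Ass1, -0.0035 for Otc and -0.10 for Tat, and for Otc they ran from -0.0098 (without quercetin 6) to 0.0956 with 1 sample left out. Between the quercetin and control groups among samples 4 to 6 they were 0.0891 for Cps1, 0.0264 for Otc and 0.14 for Tat. For Otc that difference was 0.0282 with the actin covariate and 0.0841 as deposited, and as deposited 0.0383 between the Western and control groups. The cause was not tested.

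No pairing by sample number was assumed, since the labels do not say what the numbers stand for and not every correlation of same-numbered deviations exceeded 0.1 (15 of 18 did, from -0.263 to 0.331); in 10 of 18 checks a sample correlated best with its own number, a hint from the data and not from the design. With a replicate block of numbers 1 to 3 and 4 to 6, or of numbers 1 to 6, the quercetin and control groups gave 2 calls, and all genes called between the Western and control groups went from 1180 to 1524 and 1734. With the former block Cps1 was called (adjusted p = 0.0430 by limma). Over all genes that count was 227 with the actin covariate, 88 among samples 1 to 3, 296 among samples 4 to 6 and 3725 as deposited, and 748, 770 and 783 without Western 4, control 6 or Western 5. Quercetin against control, 738 genes were called, and 155, 224, 32 and 3255 in the same 4 settings, 466 with only those groups in the fit, 1209 with the block of 1 to 6, and 456, 479 and 482 without control 6, quercetin 2 or quercetin 5. All 7 measured genes passed the filter on dim genes; signal over background was not assessed here.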
